A study of Mastomys natalensis with 3 samples.

Results

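The genes described here encode proteins of the secretory granule and enzymes that turn prohormones into active peptides. They are Chgb, Scg2, Scg3, Scg5, Vgf, Pcsk2, Cpe, Pam, Ptprn and Ptprn2, taken by gene symbol from the platform annotation. All 10 genes, of 4736 named, were on the array, with 18 of its 8799 probe sets between them. Mastomys natalensis is an African rodent in which gastric carcinoids, tumours of enterochromaffin-like (ECL) cells, arise. RNA was measured on 3 Affymetrix rat arrays, 1 for each group: animals with an ECL cell carcinoid of the stomach that arose spontaneously, animals given loxtidine for 16 weeks, and animals given loxtidine for 8 weeks. Loxtidine blocks the histamine receptor through which acid secretion is stimulated. By the labels all groups supplied ECL-enriched cells of the gastric mucosa, but the source field names ECL cells for the 8-week sample only, and gastric mucosa for the other samples. No untreated group is among the samples. Strain, age, sex, and the number of animals behind each sample are not stated in the sources used here.

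In endocrine cells, peptides and amines are stored in dense-core granules and released on demand. Granins condense in the maturing granule and are themselves cut into peptides. Prohormones are cleaved next to basic residues by convertases, trimmed by a carboxypeptidase, and in many cases amidated at the C-terminus. Gastric ECL cells store histamine, and granins are commonly used as markers of neuroendocrine cells and tumours.

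With 1 array per group, no difference had a replicate check, and the precision of all values is limited by the number of arrays. Intensities are quantile-normalized from the deposited values, in arbitrary units, unless called deposited. The floor of 12.4 is the median of all non-control values, and a fold is written "at least" where 1 of the arrays lay below it. Controls assumed to find no target here (antisense, bacterial, yeast and mouse sequences) numbered 38, of which 9 in carcinoid, 9 at 16 weeks and 8 at 8 weeks reached the floor. Their highest readings were 48.0, 29.1 and 44.8 in that order. For GAPDH, the control read at the 3′ end was 2.31, 1.43 and 8.95 times that at the 5′ end, so the 8-week array stood apart, and its part in the differences from that array was not tested. Every array also had a lot label of its own, and lot and group cannot be told apart. The only measurable error was the disagreement between probe sets made from different sequences of the same gene. On the log2 scale this spread was 0.86 in carcinoid against 8 weeks over 213 genes, 0.67 in carcinoid against 16 weeks over 250 genes, and 0.84 in 16 against 8 weeks over 233 genes. In those pairs of probe sets the signs of the differences were opposite in 46.9%, 51.2% and 49.4% of genes. The paired differences lay more than 1 apart on the log2 scale in 43.2%, 29.2% and 39.1% of genes.

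Outside Pam, few granule gene readings exceeded the brightest no-target control of their array. Deposited intensities of the 18 probe sets ran from 1.3 to 229.4, and none outside Pam exceeded 46.1. Of the 18, 5 reached the floor on all 3 arrays, 11 on some arrays and 2 on none. By array, 11 reached it in carcinoid, 13 at 16 weeks and 10 at 8 weeks, and over all 8740 non-control probe sets the counts were 4371, 4379 and 4371, as the definition of the floor fixes. On the carcinoid array 3 probe sets exceeded every no-target control, all of them for Pam. On the 16-week array 6 did so, for Chgb, Vgf, Scg5 and Pam, and on the 8-week array 2, both for Pam. Rat probes were used on Mastomys RNA, and in a dim reading sequence mismatch and little transcript cannot be told apart. In these bulk samples, fewer granule-bearing cells and less RNA per cell cannot be told apart.

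**Figure D1:**
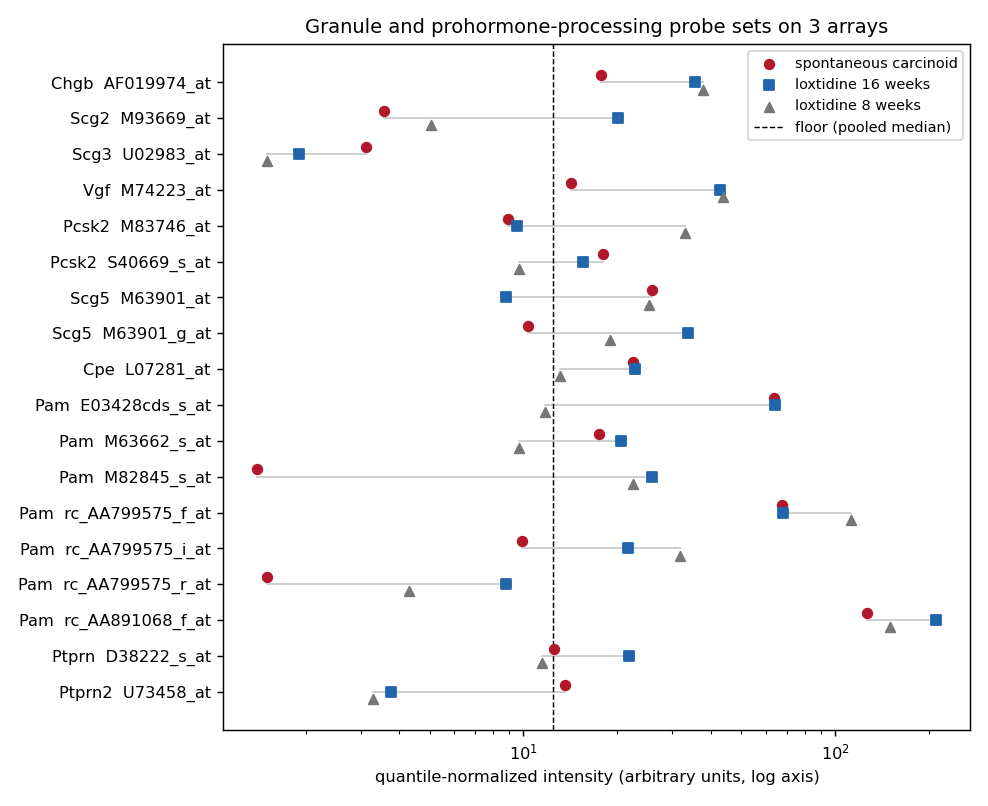
Quantile-normalized intensity (horizontal, log axis, arbitrary units) of the 18 probe sets, with 1 point per array; the dashed line is the floor of 12.4 and points are offset slightly in height. The Pam probe sets reach furthest to the right, Scg3 stays left of the floor on every array, and Chgb and Vgf have their carcinoid point to the left of the other points.

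Among the granins, Vgf and Chgb were lowest on the carcinoid array, and they were close to each other on the loxtidine arrays. Vgf, a precursor of several secreted peptides, read 14.2 on the carcinoid array, 42.8 at 16 weeks and 43.7 at 8 weeks. It was 3.09-fold lower in carcinoid than at 8 weeks and 3.02-fold lower than at 16 weeks (log2 differences of -1.63 and -1.59). Both differences exceeded the spread between probe sets, but both rest on the same carcinoid reading. That spread is a typical size of disagreement and not its upper limit. The carcinoid and 8-week readings of Vgf did not exceed the highest no-target control of their arrays, and the 16-week reading did. As deposited, Vgf was 2.11-fold and 2.88-fold lower in carcinoid than at 8 and 16 weeks. The carcinoid reading lay just above the floor, so the size of the difference is poorly fixed.

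Chgb, chromogranin B, an abundant granin of endocrine granules, read 17.7 on the carcinoid array, 35.4 at 16 weeks and 37.6 at 8 weeks. Of these readings, only the one at 16 weeks exceeded the highest no-target control of its array. In carcinoid it was 2.12-fold lower than at 8 weeks, and against 16 weeks it fell just short of 2-fold, with a log2 difference of -0.9986. With scaling by the median the difference from 16 weeks was -1.02, just past 2-fold. As deposited, the carcinoid reading was 1.49-fold lower than that at 8 weeks and 1.91-fold lower than that at 16 weeks. The loxtidine arrays hardly differed for these granins: 16 against 8 weeks, the log2 difference was -0.08 for Chgb and -0.03 for Vgf.

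Scg2, secretogranin II, the precursor of secretoneurin, reached the floor on the 16-week array alone. Its readings were 3.57 in carcinoid, 20.2 at 16 weeks and 5.07 at 8 weeks, which made carcinoid at least 1.63-fold lower than 16 weeks and 16 weeks at least 1.63-fold higher than 8 weeks. The 16-week reading did not exceed the highest no-target control there. Scg3, secretogranin III, which links granins to the granule membrane, stayed below the floor everywhere (3.13 in carcinoid, 1.9 at 16 weeks and 1.5 at 8 weeks), so no fold is given. Chga, the granin most used as an ECL cell marker, is not analysed here, since no probe set in the annotation given carried its symbol alone.

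Pcsk2, the convertase of the regulated pathway, and Scg5, the small chaperone that escorts it and keeps it inactive on its way to the granule, each had a pair of probe sets, and in each pair the patterns were opposed. The Pcsk2 probe set M83746_at read 8.9 in carcinoid, 9.57 at 16 weeks and 33.0 at 8 weeks. It was thus at least 2.66-fold lower in carcinoid than at 8 weeks and, by the same bound, at least 2.66-fold lower at 16 weeks. The other, S40669_s_at, read 17.9, 15.5 and 9.7 in that order. Against 8 weeks, carcinoid was at least 1.45-fold higher on it, and 16 weeks at least 1.25-fold higher. Since the probe sets of this gene moved in opposite directions, the data give no direction for Pcsk2.

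For Scg5 the disagreement arose within probe sets named for the same accession. M63901_at read 25.9 in carcinoid, 8.77 at 16 weeks and 25.3 at 8 weeks, with its low point at 16 weeks. M63901_g_at read 10.3 in carcinoid, 33.6 at 16 weeks and 19.0 at 8 weeks, with its high point at 16 weeks. Carcinoid was therefore at least 2.09-fold higher than 16 weeks on M63901_at and at least 2.71-fold lower on M63901_g_at, the brighter. At 16 weeks, M63901_at was at least 2.04-fold lower than at 8 weeks, and M63901_g_at was 1.77-fold higher.

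Cpe, carboxypeptidase E, which removes the basic residues that convertases leave behind, had 1 probe set. It read 22.5 in carcinoid, 22.8 at 16 weeks and 13.1 at 8 weeks, so that carcinoid and 16 weeks differed by -0.02 on the log2 scale. Against 8 weeks it was 1.71-fold higher in carcinoid and 1.74-fold higher at 16 weeks, and both differences were within the spread between probe sets. As deposited, the 8-week reading of 10.8 lay below the floor of those values (12.2), and the bounds were at least 1.04 (carcinoid) and at least 0.98 (16 weeks) higher on the log2 scale. In the deposited values all probe sets were shifted upward against 8 weeks by a median of 0.45 (carcinoid) and 0.41 (16 weeks).

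Pam, the monooxygenase that makes C-terminal amides and so completes peptides such as gastrin, had 7 probe sets. The brightest, rc_AA891068_f_at, read 126 in carcinoid, 211 at 16 weeks and 149 at 8 weeks. It was 1.68-fold lower in carcinoid than at 16 weeks, 1.18-fold lower than at 8 weeks, and 1.41-fold higher at 16 than at 8 weeks. By the array maker's naming, f_at marks probe sets shared within a sequence family, so this signal may hold other transcripts. The other bright probe set of that kind, rc_AA799575_f_at, read 67.7, 67.8 and 112 on the carcinoid, 16-week and 8-week arrays. Here carcinoid and 16 weeks were alike in reading, and each was 1.66-fold or 1.65-fold lower than 8 weeks.

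Another Pam probe set, E03428cds_s_at, fell below the floor on the 8-week array alone. It read 63.6 in carcinoid and 64.0 at 16 weeks, against 11.7 at 8 weeks. That is at least 5.13-fold higher in carcinoid and at least 5.16-fold higher at 16 weeks than at 8 weeks. M63662_s_at had the same order at lower readings of 17.4, 20.6 and 9.7. M82845_s_at differed again, with 1.4 in carcinoid, 25.9 at 16 weeks and 22.4 at 8 weeks, and was at least 2.09-fold lower in carcinoid than at 16 weeks. With the floor at 4.2 this bound became -2.62 on the log2 scale. Over the 6 Pam probe sets with a value, log2 differences of carcinoid against 8 weeks spanned -1.36 to 2.36, with 2 above 0 and 4 below. Those of 16 against 8 weeks spanned -0.73 to 2.37, with 4 above 0 and 2 below. In carcinoid against 16 weeks all 6 were below 0, from -1.06 to -0.0028, although the smallest differences, for E03428cds_s_at and rc_AA799575_f_at, were -0.01 and -0.0028. As deposited the 7 probe sets held no such common sign, since E03428cds_s_at was 1.11-fold and rc_AA799575_f_at 1.11-fold higher in carcinoid than at 16 weeks, and with scaling by the median their log2 differences were 0.06 and 0.07. The i_at and r_at probe sets of the accession AA799575, kinds for which fewer or less specific probes could be picked, read 9.87, 21.7 and 31.8 (i_at) and 1.5, 8.77 and 4.3 (r_at) on the carcinoid, 16-week and 8-week arrays.

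**Figure D2:**
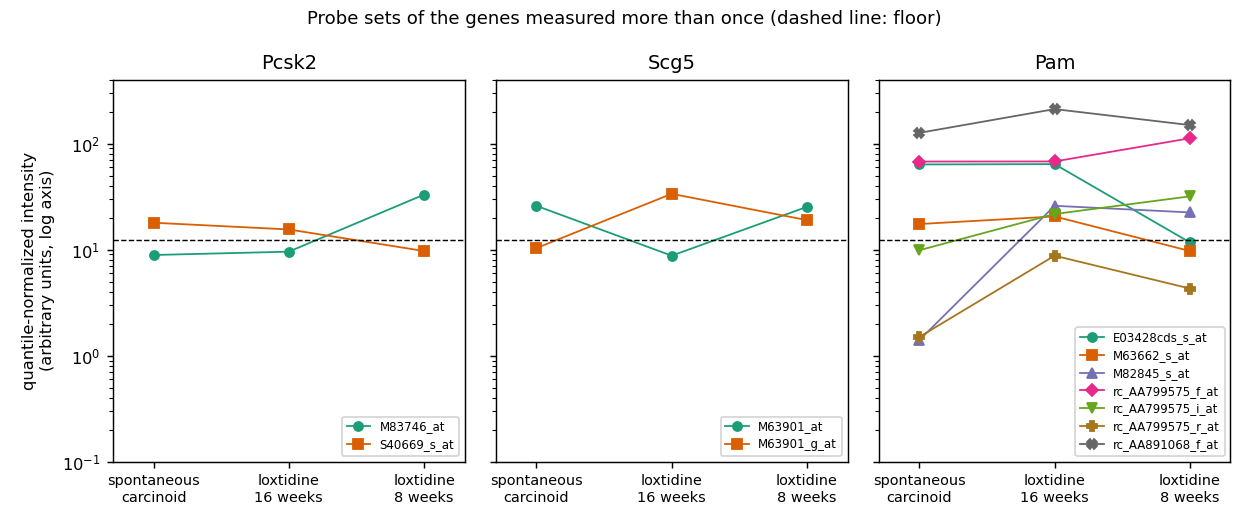
Quantile-normalized intensity (vertical, log axis, arbitrary units) on the carcinoid, 16-week and 8-week arrays for each probe set of Pcsk2 (2 probe sets), Scg5 (2) and Pam (7); lines join readings of 1 probe set and the dashed line is the floor of 12.4. The lines cross for Pcsk2 and Scg5, and for Pam E03428cds_s_at is lowest at 8 weeks where rc_AA799575_f_at is highest.

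Ptprn and Ptprn2 encode transmembrane proteins of the granule that resemble receptor tyrosine phosphatases. Ptprn read 12.5 in carcinoid, 21.9 at 16 weeks and 11.4 at 8 weeks. It was 1.74-fold lower in carcinoid than at 16 weeks and at least 1.76-fold higher at 16 than at 8 weeks. Ptprn2 reached the floor only in carcinoid, with 13.6 there, 3.77 at 16 weeks and 3.3 at 8 weeks. The bound was at least 1.09-fold higher in carcinoid than on either loxtidine array, and the ordering of values so near the floor is uncertain.

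Taken gene by gene on the brightest probe set, 9 of the 10 genes reached the floor on at least 1 array, the exception being Scg3. This passing is itself set by the array where a gene was high. In carcinoid against 8 weeks, 3 of the 9 were at least 2-fold lower (Chgb, Vgf and Pcsk2) and 0 at least 2-fold higher. Over all 3658 genes that reached the floor on some array, 12.6% were at least 2-fold lower and 13.4% were higher by as much. The 9 genes had a median log2 difference of -0.24, and all genes had 0. In each of the 3 comparisons the median of the 9 was the value of 1 Pam probe set, rc_AA891068_f_at. That signal may hold other transcripts, and the Pam probe sets disagreed, so the medians do not fix a shift of the group. The median of the 9 was 0 as deposited (where that of all genes was 0.34), with scaling by the median, and without f_at, i_at and r_at probe sets. As deposited, Chgb was no longer among the genes at least 2-fold lower. Without Pcsk2, whose probe sets were opposed, the genes that were lower are Chgb and Vgf.

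In carcinoid against 16 weeks, 2 of the 9 were at least 2-fold lower (Scg5 and Vgf) and 0 higher, where 8.37% of all genes were lower and 8.47% higher. The median of the 9 was -0.75 and that of all genes 0, with 7 genes below 0, 1 above (Ptprn2) and 1 at 0 (Pcsk2, below the floor on both arrays). Of those 7, the Cpe difference was -0.02 and the other Scg5 probe set pointed the opposite way. The median was again the value of Pam rc_AA891068_f_at. In 16 against 8 weeks, 1 of the 9 was at least 2-fold lower (Pcsk2) and 0 higher, where 11.8% of all genes were lower and 12.8% higher, so that the count was close to the background. The median was 0.50, with 5 genes above 0 (Scg2, Scg5, Cpe, Pam and Ptprn) and 3 below. Here too the other Scg5 probe set pointed the opposite way, 2 of the 6 Pam probe sets with a value were below 0, and the Pcsk2 probe sets were opposed. With the median of a gene's probe sets, the median of the 9 was 0 and 0 genes were at least 2-fold lower. Over all genes the share lower was then 9.30%. The comparisons share arrays in pairs and are not separate evidence.

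**Figure D3:**
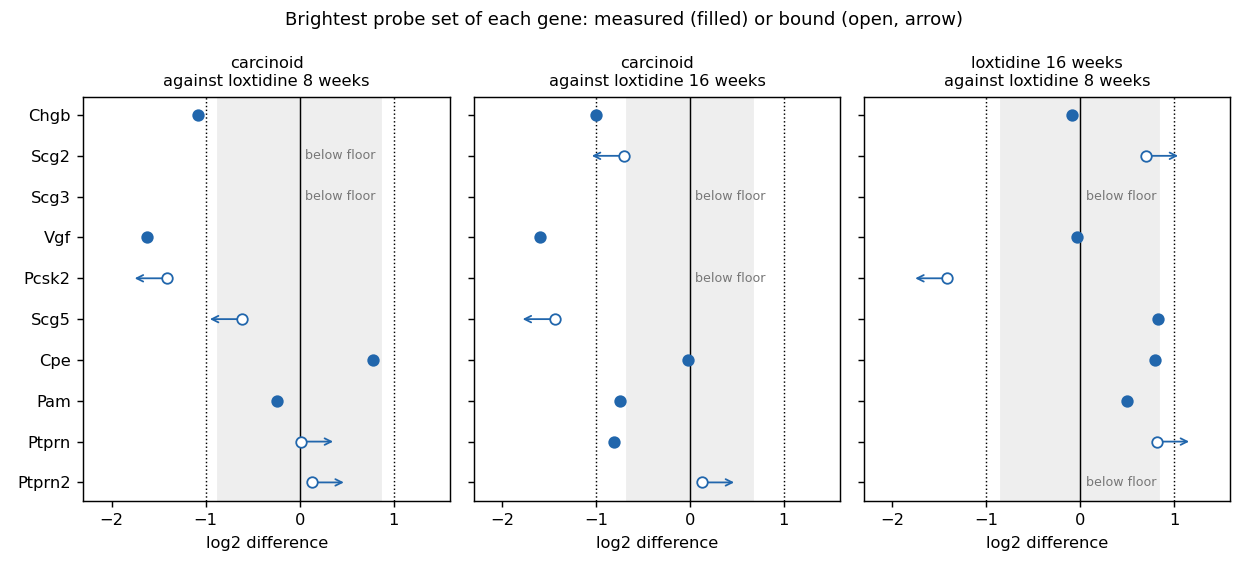
Log2 differences of the brightest probe set of each gene in the 3 comparisons; filled points were measured on both arrays, open points with an arrow are bounds in the direction of the arrow, dotted lines mark 2-fold, and the grey band is the spread between probe sets of a gene (0.86, 0.67 and 0.84). Vgf lies beyond 2-fold on the lower side in both carcinoid comparisons and near 0 between the loxtidine arrays.

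The array on which each gene had its extreme value, after readings below the floor were raised to it, was counted as well. The carcinoid array held the lowest value of 4 of the 9 genes (Chgb, Scg5, Vgf and Pam), against 23.4% of all genes, and the highest value of 1 (Ptprn2), against 31.9%. Some other probe sets of these genes had their low elsewhere: Scg5 M63901_at at 16 weeks, and Pam E03428cds_s_at and M63662_s_at at 8 weeks. The 16-week array held the highest value of 5 (Scg2, Scg5, Cpe, Pam and Ptprn), against 30.9%, and the lowest of 0, against 21.7%. For Cpe this rested on 22.8 at 16 weeks against 22.5 in carcinoid, and as deposited the carcinoid reading was the higher (25.1 against 24.1). The 8-week array held the highest value of 3 (Chgb, Vgf and Pcsk2), against 36.9%, and the lowest of 2 (Cpe and Ptprn), against 28.2%. On their brightest probe sets Scg2 reached the floor only at 16 weeks, Ptprn2 only in carcinoid and Pcsk2 only at 8 weeks. The filter that admitted these genes thus fixed which array was their highest, as it did for such genes within the shares of all genes. The order of the loxtidine arrays for Chgb and Vgf turned with the scaling: as deposited the 16-week reading was higher than the 8-week reading by 1.28-fold for Chgb and 1.36-fold for Vgf, and with scaling by the median the log2 differences of 16 against 8 weeks were -0.0044 and 0.09.

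Markers of the cells that could carry these granules, and of other cells of the stomach wall, also differed between arrays. Hdc, which makes the histamine of ECL cells, stayed below the floor on each array (3.2 in carcinoid, 4.77 at 16 weeks and 4.43 at 8 weeks). Slc18a2, the vesicular monoamine transporter that loads histamine into granules, read 23.2 in carcinoid, 42.3 at 16 weeks and 21.8 at 8 weeks, with a second probe set below the floor on every array. The gastrin receptor Cckbr read 35.2, 56.5 and 74.3 on the carcinoid, 16-week and 8-week arrays, lowest in carcinoid, whereas Slc18a2 was about level in carcinoid and at 8 weeks. The second Cckbr probe set reached the floor only at 16 weeks, with 33.4. Summed over the 3 ECL markers on the array, intensity was 61.6 in carcinoid, 104 at 16 weeks and 100.5 at 8 weeks. Neurons also make granins: of 10 neuron and glia markers on the array, 8 reached the floor in carcinoid, 4 at 16 weeks and 6 at 8 weeks, with summed intensities of 230, 203 and 226. Nefm stayed below the floor on every array. Somatostatin, Sst, the D cell hormone, read 149.7 in carcinoid, 200 at 16 weeks and 159 at 8 weeks. Its second probe set read 95.6, 100.5 and 86.8, with carcinoid above 8 weeks. Both epithelial markers on the array, with sums of 324, 228 and 106 in the same array order, read higher in carcinoid than at 8 weeks. The keratin gene Krt8 read 203 in carcinoid, 118 at 16 weeks and 41.5 at 8 weeks, and was 4.89-fold higher in carcinoid than at 8 weeks. For Krt18 that comparison gave 1.88-fold on the probe set with the higher mean, and on the other a bound of 11.0-fold, also upward. The surface mucin Muc5ac read 213, 168 and 15.8 on the carcinoid, 16-week and 8-week arrays, 13.4-fold higher in carcinoid than at 8 weeks (4.65-fold on its second probe set). The summed mucous cell markers (4 on the array) did not share that order, at 1601, 1137 and 1283. Of 4 exocrine pancreas markers, 2 in carcinoid, 3 at 16 weeks and 4 at 8 weeks reached the floor, with sums of 60.4, 81.7 and 226. Among them Pnlip was 3.92-fold and Cela1 2.66-fold lower in carcinoid than at 8 weeks, and the second Pnlip probe set stayed below the floor. The sums for the remaining lists, given for carcinoid, 16 weeks and 8 weeks, were 1306, 1804 and 1357 for parietal cells, 7771, 10041 and 7969 for chief cells, and 68.7, 50.4 and 25.9 for smooth muscle. They were 53.0, 38.8 and 93.8 for endothelium and 8, 14.3 and 51.3 for leukocytes. All these sums include readings below the floor, and no leukocyte marker reached it in carcinoid. At 8 weeks Selp alone read 60.1 among the endothelial markers, and Cd74 alone 35.3 among those of leukocytes. The part of any of these cells in the granule gene values was not tested.

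Other enzymes cut or trim peptide precursors, in or outside the granule. Of 15 such genes on the array 13 reached the floor. In carcinoid against 8 weeks 3 were at least 2-fold higher and 2 lower, with a median log2 difference of -0.01, where 13.4% of all genes were higher and 12.6% lower. In carcinoid against 16 weeks 1 was higher and 2 lower (median 0.29), where the shares of all genes were 8.47% and 8.37%. In 16 against 8 weeks 1 was higher and 1 lower (median 0), where they were 12.8% and 11.8%. With so few genes, these counts are near the background. Cpd, the carboxypeptidase of the trans-Golgi network that shares its specificity with Cpe, read 140 in carcinoid, 75.1 at 16 weeks and 31.7 at 8 weeks. It was 4.41-fold higher in carcinoid than at 8 weeks, 1.86-fold higher than at 16 weeks, and 2.37-fold higher at 16 than at 8 weeks. Furin, the convertase of the constitutive pathway, was bright, with 1030 in carcinoid, 1537 at 16 weeks and 1140 at 8 weeks on its brighter probe set, and was 1.11-fold lower in carcinoid than at 8 weeks, 1.49-fold lower than at 16 weeks and 1.35-fold higher at 16 than at 8 weeks. Its other probe set was 1.29-fold higher in carcinoid than at 8 weeks, 2.01-fold lower than at 16 weeks and 2.59-fold higher at 16 than at 8 weeks. Pcsk7, another broadly expressed convertase, read 44.1 in carcinoid, 39.7 at 16 weeks and 44.5 at 8 weeks. Cpz, an extracellular carboxypeptidase, was at least 2.94-fold lower in carcinoid than at 8 weeks and at least 3.4-fold lower than at 16 weeks. Dpp4, a cell-surface dipeptidyl peptidase, was at least 2.94-fold lower in carcinoid than at 8 weeks and at least 2.05-fold lower than at 16 weeks, with a second probe set below the floor. Prep, prolyl endopeptidase, reached the floor only in carcinoid, at least 2.57-fold higher there than on either loxtidine array. Ece1, the endothelin-converting enzyme, was at least 3.38-fold higher in carcinoid than at 8 weeks on its brighter probe set. On the other it was at least 1.48-fold lower. The carcinoid readings of Prep and of the brighter Ece1 probe set (31.9 and 42.0) did not exceed the highest no-target control there (48.0). Nor did the 8-week readings of Cpz and Dpp4 (36.4 each) exceed that of their array (44.8). At 16 weeks Cpz (42.2) exceeded the highest control (29.1), and Dpp4 (25.4) did not.

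The listed precursors of peptide hormones and neuropeptides had a median log2 difference below 0 in each comparison. Of 35 precursor genes on the array 26 reached the floor. In carcinoid against 8 weeks 3 were at least 2-fold higher and 5 lower (median -0.60), in carcinoid against 16 weeks 0 higher and 4 lower (median -0.16), and in 16 against 8 weeks 2 higher and 7 lower (median -0.25). The shares of all genes higher and lower were 13.4% and 12.6%, 8.47% and 8.37%, and 12.8% and 11.8% in the same order. Medians over all genes were 0 in each comparison. The comparisons share arrays, and the medians of this list were computed with the main processing only. Gast, the precursor of gastrin, which stimulates ECL cells, read 3.87 in carcinoid, 8.77 at 16 weeks and 32.2 at 8 weeks. It was at least 2.6-fold lower in carcinoid than at 8 weeks and, by the same bound, lower at 16 weeks. The natriuretic peptide precursor Nppa read 7.2, 36.0 and 95.9 on the carcinoid, 16-week and 8-week arrays. It was at least 7.73-fold lower in carcinoid than at 8 weeks, with a second probe set at least 2.93-fold lower and a further pair below the floor. Nppb, of the same family, was at least 3.38-fold lower in carcinoid and at 16 weeks than at 8 weeks. The 8-week readings of Gast and Nppb (32.2 and 42.0) did not exceed the highest no-target control there (44.8). The brighter Nppa probe set did. Tac1, the tachykinin precursor, read 30.1 in carcinoid, 92.2 at 16 weeks and 6.7 at 8 weeks, and its second probe set stayed below the floor. Galanin, Gal, read 38.5, 25.3 and 16.7 on the carcinoid, 16-week and 8-week arrays, 2.31-fold higher in carcinoid than at 8 weeks. That carcinoid reading did not exceed the highest no-target control there (48.0).

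The list of granule docking, exocytosis and amine loading genes held 25 genes on the array, and of these 18 reached the floor. In carcinoid against 8 weeks 1 was at least 2-fold higher and 1 lower, in carcinoid against 16 weeks 0 higher and 1 lower, and in 16 against 8 weeks 2 higher and 0 lower, with medians of -0.01, 0 and -0.01. The shares of all genes were 13.4% higher and 12.6% lower, 8.47% and 8.37%, and 12.8% and 11.8%. The lower gene against 16 weeks was Cadps, which primes dense-core granules for release. Cadps read 3.87 in carcinoid, 33.2 at 16 weeks and 13.7 at 8 weeks, which is at least 2.67-fold lower in carcinoid than at 16 weeks and 2.43-fold higher at 16 than at 8 weeks. Synaptophysin, Syp, a vesicle membrane protein, read 26.7, 33.6 and 57.1 on the carcinoid, 16-week and 8-week arrays and was 2.14-fold lower in carcinoid than at 8 weeks. Atp6v0a1, a subunit of the proton pump that acidifies granules and other organelles, was 3.93-fold higher in carcinoid and 4.25-fold higher at 16 weeks than at 8 weeks. On its second probe set the bounds were at least 2.26-fold higher in carcinoid and at least 3.16-fold higher at 16 weeks. Snap25, part of the fusion machinery, read 39.7 in carcinoid, 42.9 at 16 weeks and 47.8 at 8 weeks. A second Snap25 probe set read 16.5, 27.6 and 18.4 in that order, highest at 16 weeks, and a further pair stayed below the floor.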

How the data were processed

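The authors deposited a linear intensity for every probe set on each array. How it was computed, corrected for background and scaled is not given in the sources used here. Each sample was placed in its group by its description. The members and gene lists were chosen with earlier results of these data known. The 3 arrays were quantile-normalized over 8799 probe sets. The median of the 8740 non-control probe sets, pooled over arrays, served as the floor, and lower values were raised to it before log2. Genes were named from the platform annotation, and only probe sets with 1 symbol were used (7006, beside 308 with several and 1426 with none). All probe sets of the 10 genes are given, and a gene's value in counts is that of its brightest probe set (mean of the deposited values). From each companion list, genes could be named that were among the 4 with the largest difference in a comparison or at or above the floor on all 3 arrays, and not all of these are printed. Markers were taken from the cell type lists. No significance test was possible. The spread between probe sets is the root mean square difference of 1 pair per gene, divided by the square root of 2. Depth is unknown for intensities. Alternatives were the values as deposited, scaling by the median, floors at the 25th and 75th percentiles, log2 of the value plus the floor, the median of a gene's probe sets and, added after the values had been seen, leaving out f_at, i_at and r_at probe sets. The steps were run on simulated data, with changes planted only in bright probe sets and noise smaller than the spread between probe sets. That run does not bear on readings near the floor. Python 3.11.15, numpy 2.4.6, pandas 2.3.3 and scipy 1.17.1 were used.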

Additional observations from a re-analysis of the deposited data

How the results depend on the processing

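Vgf was lower in carcinoid than on each loxtidine array under every alternative, but with the floor at the 75th percentile (30.0) only 5 of the genes reached it, the counts of genes at least 2-fold lower became 0, 0 and 0 (carcinoid against 8 weeks, carcinoid against 16 weeks, 16 against 8 weeks), and the medians of carcinoid against 16 weeks and of 16 against 8 weeks became -0.24 and -0.032. At that floor 6.04%, 1.92% and 5.80% of all genes were at least 2-fold lower, in the same order of comparisons. The median of carcinoid against 8 weeks became 0 as deposited, with scaling by the median and without f_at, i_at and r_at probe sets. Chgb was not 2-fold lower in that comparison as deposited or with log2 of the value plus the floor (-0.58 and -0.73). As deposited, 1 gene (Cpe) was at least 2-fold higher in carcinoid than at 8 weeks and 2 (Scg5 and Pam) at 16 than at 8 weeks, where the median was 0.81. In those values 24.1% and 20.4% of all genes were at least 2-fold higher, and 5.40% and 5.67% lower. With the floor at the 25th percentile (4.2), 1 gene was higher in each comparison: Ptprn2 against 8 and 16 weeks, and Scg2 in 16 against 8 weeks. Over all genes the shares higher were then 21.1%, 16.8% and 20.6% in that order. In carcinoid against 16 weeks, 3 genes were lower with that floor and with log2 of the value plus the floor (Scg2, Scg5 and Vgf). With scaling by the median 3 were lower as well (Chgb, Scg5 and Vgf). The shares of all genes lower were 15.9%, 5.47% and 8.56% under these alternatives. With the median of a gene's probe sets, 1 gene (Vgf) was lower in carcinoid than at 16 weeks, with a median of -0.49. In 16 against 8 weeks 0 genes were lower, with a median of 0. The shares of all genes lower were then 6.985% and 9.30%. Without f_at, i_at and r_at probe sets, 1 gene, Pam, was higher in carcinoid than at 8 weeks. In 16 against 8 weeks 1 gene, also Pam, was higher. The shares of all genes higher were then 13.4% and 12.6%. Of 45 probe set differences, 7 changed sign as deposited and 4 with scaling by the median, none of which had been 2-fold or more, and 0 under the other alternatives that gave them. No paired analysis was possible because each group has 1 array.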

Other observations

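Transcription factors of endocrine cells were counted too. Of 9 on the array 6 reached the floor. In carcinoid against 8 weeks 2 were at least 2-fold higher and 2 lower, in carcinoid against 16 weeks 0 higher and 1 lower, and in 16 against 8 weeks 2 higher and 1 lower. Over all genes the shares were 13.4% and 12.6%, 8.47% and 8.37%, and 12.8% and 11.8%, and 6 genes are too few to set the list apart. Isl1, a factor of endocrine precursors and neurons, read 50.4 in carcinoid, 43.1 at 16 weeks and 17.7 at 8 weeks, 2.85-fold higher in carcinoid and 2.44-fold higher at 16 weeks than at 8 weeks. On its second probe set the bounds were at least 2.5-fold higher in carcinoid and at least 2.52-fold higher at 16 weeks. Foxa2, a factor of endoderm-derived epithelium, read 49.8 in carcinoid, 38.6 at 16 weeks and 2.47 at 8 weeks, which is at least 4.02-fold higher in carcinoid and at least 3.11-fold higher at 16 weeks than at 8 weeks. Neurod2, a factor known mainly from neurons, was at least 4.43-fold lower in carcinoid than at 8 weeks and at least 3.43-fold lower than at 16 weeks. Neurod1 acts in endocrine cells of the gut and pancreas. It was 2.1-fold lower in carcinoid than at 8 weeks and at least 2.52-fold lower at 16 weeks. That was on 1 probe set, whose 8-week reading of 31.3 did not exceed the highest no-target control there. The other probe set stayed below the floor.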
